A study of Mus musculus with 32 samples.

Results

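To describe how mRNAs that carry a recoded UGA codon were distributed between light and heavy ribosome fractions, 10 selenoprotein mRNAs (Gpx1, Gpx4, Txnrd1, Txnrd2, Selenof, Selenok, Selenom, Selenos, Selenot and Selenow) were picked by gene symbol from the 17757 genes of a polysome profiling count table. All 10 were present and tested. Every gene of the deposited table had a count above 0 in at least 3 of the 4 libraries of some condition and fraction, a filter the authors had applied, and no further filter on low counts was used. The libraries came from spheroids of 4T1 cells, a mouse mammary carcinoma line, grown for 5 days in a medium with the nutrient levels of lung interstitial fluid. Control spheroids with a scrambled hairpin were kept with 700 µM aspartate (ASP shSCR) or without it (NoASP shSCR), and spheroids of the same line with a hairpin targeting either Grin2d (ASP shGRIN2D) or else Dhps (ASP shDHPS) received the same aspartate supplement. GRIN2D is an NMDA receptor subunit, and DHPS catalyses the opening step of eIF5A hypusination. All lines, controls included, were polyclonal cells carrying a lentiviral hairpin vector and selected with puromycin. Independent spheroid pellets, 4 per condition, were each split into a polysomal library (mRNA bound by more than 3 ribosomes) and a sub-polysomal library (fewer than 3), 32 libraries in all.

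Selenoproteins contain selenocysteine, which the ribosome inserts at an in-frame UGA that would otherwise end translation. Reading UGA as selenocysteine needs a hairpin in the 3′ untranslated region of the mRNA (the SECIS element). It also needs the SECIS-binding protein SECISBP2, the elongation factor EEFSEC and a dedicated tRNA. The selenocysteine on this tRNA is made with selenium supplied to the cell. The 10 genes cover 3 kinds of protein. The glutathione peroxidases GPX1 and GPX4 reduce hydrogen peroxide and phospholipid hydroperoxides. The thioredoxin reductases TXNRD1 (cytosolic) and TXNRD2 (mitochondrial) keep thioredoxin reduced. The others are small proteins, of which SELENOF, SELENOM, SELENOT, SELENOK and SELENOS sit in or at the endoplasmic reticulum and SELENOW is cytosolic.

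The mRNAs differ in where the UGA lies in the reading frame, so the coding sequence around it is shown for all 10, 5′ to 3′, with the UGA (TGA in the annotated DNA) in capitals and up to 12 bases on each side. The windows of Txnrd1, Txnrd2, Selenok and Selenos are shorter because they reach the stop codon.
Gpx1: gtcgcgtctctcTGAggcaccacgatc
Gpx4: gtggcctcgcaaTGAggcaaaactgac
Txnrd1: cagtctggctgcTGAggttaa
Txnrd2: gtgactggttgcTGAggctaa
Selenof: gaagtctgcggaTGAaaattggggagg
Selenok: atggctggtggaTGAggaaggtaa
Selenom: acctgtggaggaTGAcagttgaatcgc
Selenos: tcatctggcggcTGAaactaa
Selenot: atttgtgtatccTGAgggtaccggcgg
Selenow: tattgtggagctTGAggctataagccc

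These codons were read from the GENCODE M21 annotation of GRCm38, an earlier build than the GRCm39 used for the counts, and all lie in coding exons. In the peroxidases and reductases the UGA was at chr9:108339451-108339453 (Gpx1), chr10:80054737-80054739 (Gpx4), chr10:82896037-82896039 (Txnrd1) and chr16:18477772-18477774 (Txnrd2), all on the plus strand. In the genes of the endoplasmic reticulum proteins it was at chr3:144590645-144590647 (Selenof), chr14:29973440-29973442 (Selenok), chr11:3516273-3516275 (Selenom), chr7:66088844-66088846 (Selenos) and chr3:58585238-58585240 (Selenot). In Selenow it was at chr7:15920464-15920466, on the minus strand. The UGA was the codon next to the stop in Txnrd1 (codon 612 of 613), Txnrd2 (526 of 527) and Selenos (189 of 190), and Selenok had 2 codons after it (92 of 94). It came early in Selenow (codon 13 of 88), Gpx1 (47 of 201), Selenom (48 of 145) and Selenot (49 of 195), and near the middle in Gpx4 (129 of 253, longest isoform) and Selenof (93 of 162). The base after the UGA was G in 7 of the 10 windows, A in Selenof and Selenos, and C in Selenom. The 7 members with G ranged over the whole spread of ratios given below, from -2.69 to 0.74.

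The libraries held 12870563 to 25639437 counts, and single members from 134 counts (Txnrd2, lowest library) to 30215 counts (Gpx1, highest library). Together the 10 mRNAs took a median of 0.433% of the counts of a sub-polysomal library and 0.217% of those of a polysomal library. On a scale where 0 is the mean sub-polysomal and 1 the mean polysomal profile of the other conditions, the polysomal library of ASP shSCR replicate 1 was at 0.372, whereas the other 15 polysomal libraries were at 0.777 to 1.27 and the 16 sub-polysomal libraries at -0.114 to 0.162. Most means, differences and correlations of the members that rest on it are therefore also given without it. Correlations of other genes with the members' mean are given only with it. All 8 carcinoma markers looked at were expressed, with Krt8 at 961 CPM (counts scaled to a common library size) and Epcam at 355 CPM on average in the sub-polysomal libraries. Of 14 markers of blood, vessel and connective tissue cells only 4 were in the table. Of these, Ptprc, Pecam1 and Rgs5 averaged at most 0.309 CPM in either fraction, and Cd68, which cells other than macrophages also express, averaged 8.09 CPM in the sub-polysomal and 15.1 CPM in the polysomal fraction.

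The genes targeted by the hairpins were checked first. In sub-polysomal libraries Dhps fell from 40.2 ± 4.72 CPM in ASP shSCR to 10.0 ± 0.785 CPM in ASP shDHPS (SD, n = 4 each; log2 difference 2.01, edgeR adjusted p = 1.11e-08), and in polysomal libraries the log2 difference was 1.64 (edgeR adjusted p = 0.0167). Grin2d had a low level (21 to 126 counts in a library), at 4.56 ± 1.61 CPM in ASP shSCR and 2.49 ± 0.435 CPM in ASP shGRIN2D, and its log2 differences of 0.88 in the sub-polysomal and 1.14 in the polysomal fraction did not pass the threshold (edgeR adjusted p = 0.232 and 0.263).

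The question put to each member was whether its mRNA was found more in the polysomal or the sub-polysomal library of a pellet than the other mRNAs of that pellet. This is given as the log2 ratio of the polysomal to the sub-polysomal level, where 0 is about the median of all genes. In ASP shSCR the members spread from the 3.01 percentile (Selenow) to the 78.2 percentile (Selenok) of the fitted ratios of all genes. Selenok and Txnrd1 had higher ratios than the median mRNA in all 4 conditions, whereas Selenow, Gpx4, Selenof and Gpx1 had lower ratios in all 4. In ASP shSCR 7 of the 10 members passed an edgeR adjusted p of 0.05, 2 higher and 5 lower, against 39.7% of all genes (20.8% higher, 18.9% lower), and without its replicate 1 it was 6. In NoASP shSCR it was 8 members (2 higher, 6 lower) against 44.3% (23.7% and 20.6%). In ASP shGRIN2D it was 9 (3 higher, 6 lower) against 43.5% (23% and 20.4%), and in ASP shDHPS 8 (3 higher, 5 lower) against 43.1% (21.8% and 21.3%). In ASP shSCR the median log2 ratio of the 10 members was -0.68, beside -0.04 for all genes. Scaling by library totals moved the median of all genes up by 0.15 in ASP shSCR and changed the higher share of its calls from 52.4% to 62.4%. Relative to that shift the members named here as higher or lower in all 4 conditions kept their sign under each scaling tried.

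Selenow, a small thioredoxin-like protein, had the lowest ratio of the 10. Its log2 ratios were -1.83, -2.46, -3.35 and -2.49 in the ASP shSCR pellets, -2.82, -2.77, -2.81 and -2.59 in NoASP shSCR, -3.60, -2.41, -2.85 and -2.57 in ASP shGRIN2D, and -3.01, -3.15, -2.27 and -2.13 in ASP shDHPS. All 16 were negative, and the highest was the pellet of ASP shSCR replicate 1. The mean was -2.69 ± 0.45 (SD, n = 16; -2.75 without that pellet), which was at the 0.217 percentile of all genes. In ASP shSCR the fitted ratio was -2.53 (SE 0.239, edgeR adjusted p = 3.35e-08). Among the fitted ratios of all genes Selenow was at the 3.01 to 4.72 percentile in the 4 conditions.

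Gpx4, the peroxidase that protects membrane lipids, came next, with log2 ratios of -1.41, -0.99, -2.30 and -1.79 in ASP shSCR, -1.76, -1.49, -2.16 and -1.64 in NoASP shSCR, -2.59, -1.56, -1.59 and -1.80 in ASP shGRIN2D, and -1.87, -1.75, -1.03 and -1.51 in ASP shDHPS. No pellet was above -0.99, and the conditions overlapped. The mean was -1.70 ± 0.41 (SD, n = 16). A processed copy listed as Gpx4-ps2 held 4.03% to 6.53% as many counts as Gpx4, so the split of reads between them is uncertain, while Gpx4-ps1 held at most 3 counts.

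Gpx1, the cytosolic peroxidase, was also low in every pellet. Its log2 ratios were -1.84, -0.18, -1.49 and -1.16 in ASP shSCR, -1.05, -0.94, -1.30 and -1.12 in NoASP shSCR, -1.97, -0.57, -0.90 and -1.23 in ASP shGRIN2D, and -1.34, -0.90, -0.51 and -0.75 in ASP shDHPS. ASP shSCR held both the least negative pellet (replicate 2) and one of the most negative. The mean over the 16 pellets was -1.08 ± 0.47 (SD).

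Both thioredoxin reductases lay on the other side of 0. Txnrd1 had log2 ratios of 0.01, 0.77, 0.83 and 0.49 in ASP shSCR, 0.62, 0.91, 0.80 and 0.20 in NoASP shSCR, 0.75, 0.50, 0.50 and 0.41 in ASP shGRIN2D, and 0.84, 0.56, 0.47 and 0.02 in ASP shDHPS. It was positive in 16 of 16 pellets, with a mean of 0.54 ± 0.28 (SD), and its fitted ratio was 0.53 in ASP shSCR (SE 0.185, edgeR adjusted p = 0.0235). The call in ASP shSCR was lost without ASP shSCR replicate 2, 3 or 4, where the ratio was 0.40, 0.43 and 0.54. In ASP shGRIN2D it was lost without replicate 1 or 2 of that condition, with ratios of 0.45 and 0.52. In ASP shDHPS it was lost without 6 of the 16 pellets, 3 of them of other conditions, with ratios of 0.35 to 0.47, and also with DESeq2 size factors (0.44) and with a minimum of 10 counts in every library (0.40). Without the pellet term it was lost in these 3 conditions (0.51, 0.55 and 0.47).

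Txnrd2, the mitochondrial reductase and the least abundant member, had log2 ratios of -0.38, 0.27, 0.03 and 0.10 in ASP shSCR, 0.68, 0.50, -0.11 and 0.43 in NoASP shSCR, 0.82, 0.78, 0.26 and 0.35 in ASP shGRIN2D, and 1.06, 0.60, 0.63 and 0.38 in ASP shDHPS. It was positive in 14 pellets, and the 4 ASP shSCR pellets were all below the 4 ASP shDHPS pellets. The ratio passed the test in ASP shGRIN2D (0.56, SE 0.186, edgeR adjusted p = 0.0154) and ASP shDHPS (0.67, SE 0.184, edgeR adjusted p = 0.00368). It was 0.01 in ASP shSCR (-0.07 with DESeq2 size factors and 0.19 with library totals), and 0.38 in NoASP shSCR (edgeR adjusted p = 0.101). The call in ASP shGRIN2D was lost without replicate 1 or 2 of that condition (0.45 and 0.44), and in NoASP shSCR Txnrd2 was called without NoASP shSCR replicate 3 (0.54).

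Among the endoplasmic reticulum members, Selenok had the highest ratio of all 10. SELENOK is a membrane protein that works with the palmitoyltransferase ZDHHC6. The log2 ratios of its mRNA were 0.68, 1.05, 0.63 and 0.75 in ASP shSCR, 0.86, 1.02, 0.56 and 0.66 in NoASP shSCR, -0.06, 0.73, 1.22 and 0.56 in ASP shGRIN2D, and 0.60, 0.98, 0.56 and 1.09 in ASP shDHPS. Only ASP shGRIN2D replicate 1 was below 0, and the mean was 0.74 ± 0.30 (SD, n = 16). The fitted ratio was 0.78 in ASP shSCR (SE 0.182, edgeR adjusted p = 0.00109). In ASP shGRIN2D the call was lost without replicate 2 or 3 of that condition (0.53 and 0.41).

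Selenos, whose protein takes part in the removal of misfolded proteins from the endoplasmic reticulum, varied widely between pellets. Its log2 ratios were -1.19, 1.02, -0.52 and -0.37 in ASP shSCR, -0.27, -0.36, -0.66 and -0.74 in NoASP shSCR, -1.63, 0.06, 0.30 and -0.55 in ASP shGRIN2D, and -1.42, -0.04, -0.27 and 0.11 in ASP shDHPS. The lowest pellets of ASP shSCR, ASP shGRIN2D and ASP shDHPS were all replicate 1. With a mean of -0.41 ± 0.66 (SD, n = 16) it passed the test in no condition with all pellets (edgeR adjusted p = 0.157 to 0.5), and in ASP shSCR it was called only when replicate 2 was left out (-0.74).

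The remaining 3 were below 0 on average. Selenot, a thioredoxin-like protein of the endoplasmic reticulum membrane, had a mean log2 ratio of -0.96 ± 0.66 (SD, n = 16) and was negative in 15 pellets. It passed the test in NoASP shSCR (-0.91), ASP shGRIN2D (-0.99) and ASP shDHPS (-1.38), and had -0.56 in ASP shSCR (edgeR adjusted p = 0.107). In ASP shSCR it was called without replicate 2 (-0.94), with DESeq2 (-0.64) and when replicate numbers entered as a block (-0.56), and in ASP shGRIN2D the call was lost without replicate 1 (-0.65). Selenof, which binds the glycoprotein folding sensor UGGT, was negative in 16 of 16 pellets, from -2.45 to -0.09, with a mean of -1.33 ± 0.61. Selenom, another thioredoxin-like protein of the lumen, had a mean of -0.55 ± 0.53 and was negative in 14 pellets. It passed the test in all conditions but ASP shDHPS (-0.19, edgeR adjusted p = 0.562), and its 3 calls were lost when libraries were scaled by their totals (-0.61, -0.43 and -0.43) and without the pellet term (-0.58, -0.61 and -0.57). They were also lost without single pellets, which were replicate 1 in ASP shSCR (-0.53), any of the 4 NoASP shSCR pellets but replicate 4, or ASP shSCR replicate 4, in NoASP shSCR (-0.61 to -0.43), and replicate 1 or 4 in ASP shGRIN2D (-0.44 and -0.57).

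**Figure D1:**
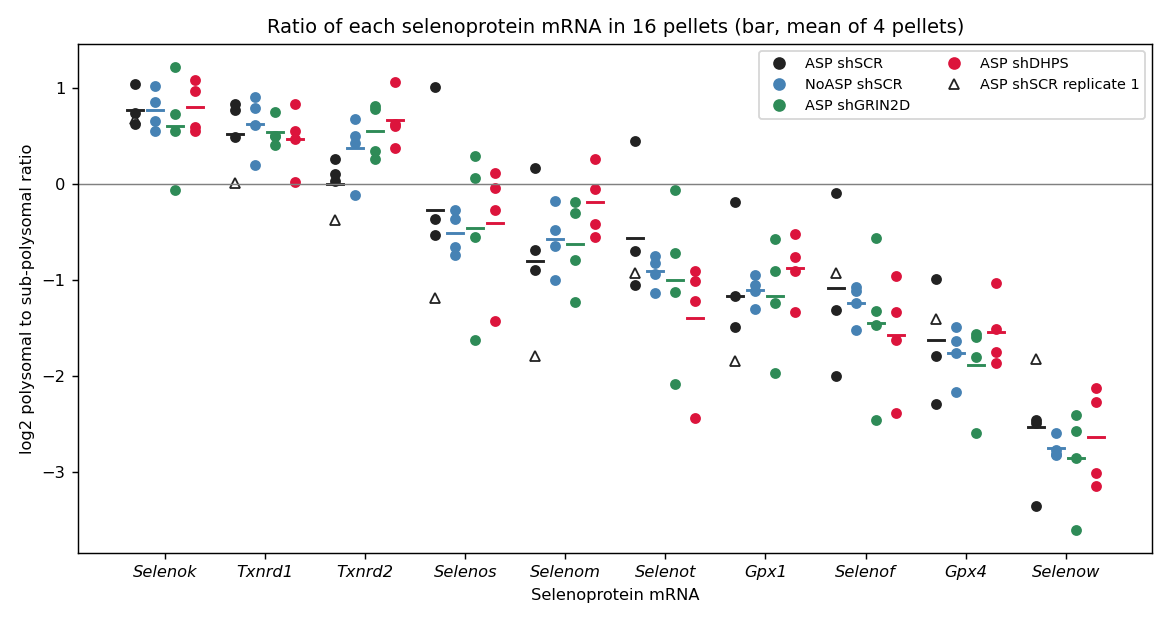
The vertical axis is the log2 ratio of the polysomal to the sub-polysomal level and the horizontal axis the 10 mRNAs, ordered by their mean; each point is 1 pellet, coloured by condition, bars are means of 4 pellets, and the open triangle is ASP shSCR replicate 1. Selenow lies at -3.60 to -1.83 in all 16 pellets, and Txnrd1 is the mRNA with all 16 above 0.

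Ordered by the mean over the 16 pellets, the members ran Selenok, Txnrd1, Txnrd2, Selenos, Selenom, Selenot, Gpx1, Selenof, Gpx4 and Selenow. Without ASP shSCR replicate 1 the order was the same, with means over 15 pellets of 0.75 (Selenok), 0.58 (Txnrd1), 0.45 (Txnrd2), -0.36 (Selenos), -0.46 (Selenom), -0.96 (Selenot), -1.03 (Gpx1), -1.36 (Selenof), -1.72 (Gpx4) and -2.75 (Selenow). Compared within pellets, 40 of the 45 pairs of members differed by an exact sign-flip permutation test over the 16 pellets (two-sided, Benjamini-Hochberg over the 45 pairs), and 25 pairs had the same order in every pellet. Leaving out ASP shSCR replicate 1, 41 pairs differed. The 5 pairs that did not differ beyond their spread were all neighbours. They were Selenok and Txnrd1 (adjusted p = 0.102), Txnrd1 and Txnrd2 (0.173), Selenos and Selenom (0.283), Selenot and Gpx1 (0.388), and Gpx1 and Selenof (0.0573), all by the exact test. The distance between the ends was 3.44 ± 0.44 (SD, n = 16) on the log2 scale, with Selenok above Selenow in 16 of 16 pellets (exact permutation p = 3.05e-05, the smallest it can give, adjusted p = 5.49e-05). This distance does not depend on how libraries are scaled, since both mRNAs share each library. In counts, Selenok had 0.0647 to 0.134 times the counts of Selenow in the 16 sub-polysomal libraries and 0.525 to 1.55 times in the 16 polysomal libraries, which did not overlap.

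Selenok and Selenow have nearly the same coding length, 94 and 88 codons. Across all genes with an annotated coding length (13378 of 17757, 75.3%), which is under 80%, so that the classes leave many genes out, the median log2 ratio was -0.81 for the 265 genes of up to 100 codons. It was -0.32 for 101 to 200 codons, -0.04 for 201 to 300, 0.14 for 301 to 600 and 0.25 above 600 (Spearman rho across genes 0.19; genes are not independent replicates). Selenok was therefore 1 of the short mRNAs with a high ratio, above the upper quartile of its length class (-0.35), and Selenow was below the lower quartile (-1.43). Gpx4 and Gpx1 were also below the lower quartile of theirs (-0.78), at -1.70 and -1.08, and so were Selenof and Selenot, the latter narrowly (-0.96 against -0.94). Txnrd1, Txnrd2, Selenom and Selenos lay between the quartiles of their classes. Of the 10 members, 5 were thus below, 4 within and 1 above.

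A grouping by the place of the UGA, chosen after the ratios were seen, divided the members without overlap in their means. The 4 mRNAs with at most 10 codons after the UGA (Txnrd1, Txnrd2, Selenok, Selenos) had mean log2 ratios of -0.41 to 0.74, and the 6 with an earlier UGA had -2.69 to -0.55. The closest across this division, Selenos and Selenom, did not differ beyond their spread (adjusted p = 0.283 by the exact permutation test above). The same division was then looked at in the 11 other selenoprotein mRNAs in the table. The members do not set its limit of 10 codons, since they had either 1 or 2 codons after the UGA or at least 69. Selenoi (1.01), Txnrd3 (0.97) and Selenoo (0.25), with a late UGA, were at 0.25 to 1.01, and the 8 with an earlier UGA were at -1.07 to 0.36. Here the classes overlapped, through Dio2 (0.36), which has UGA codons at positions 130 and 263 of 266. The classes also depend on the limit, since Selenoi has 10 codons after its UGA and Msrb1 (-0.53) has 21. A lower limit would put Selenoi, the highest of these 11, in the earlier class. Late-UGA mRNAs were also longer in most cases, with 5 of the 7 at 398 codons or more, so place and length cannot be told apart in these. Of the short late-UGA members, Selenos was within the quartiles of its length class and Selenok above them. Gpx3 and Selenop had counts of 0 in some libraries and at most 7 and 49 counts, so their means carry little weight. These are descriptions with no test.

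**Figure D2:**
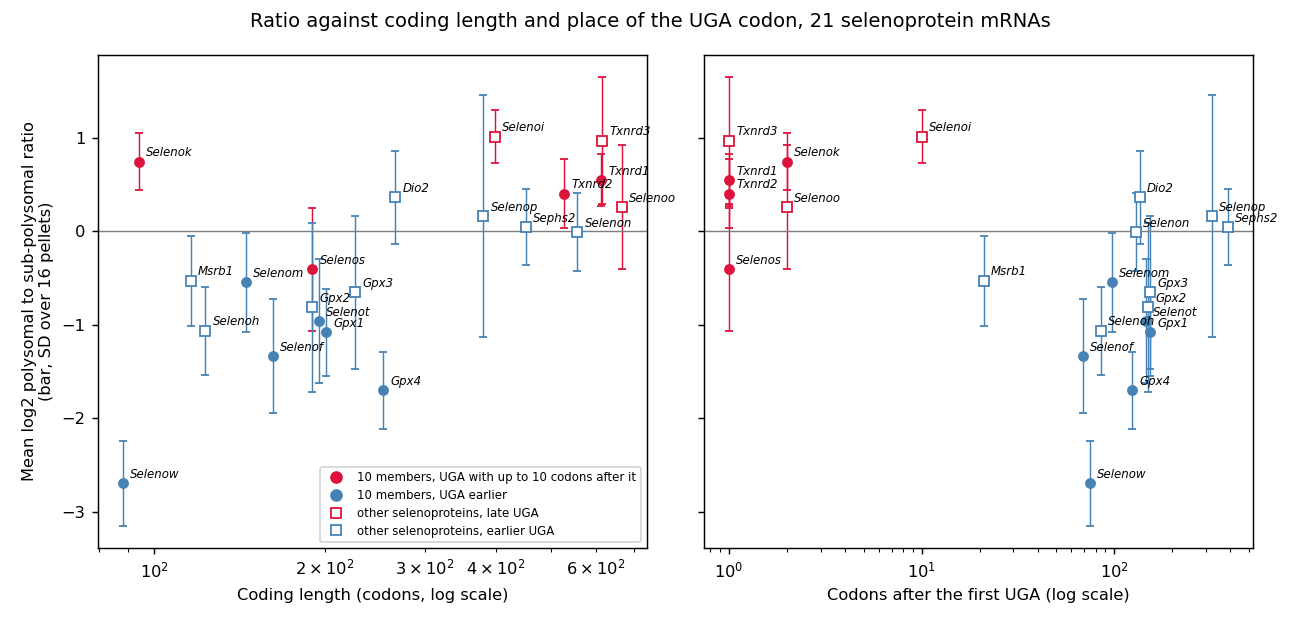
Both panels show the mean log2 polysomal to sub-polysomal ratio of 21 selenoprotein mRNAs (bars, SD over 16 pellets) against coding length in codons on the left and against the number of codons after the first UGA on the right, both on log axes; filled circles are the 10 members, open squares the other 11, and red marks a UGA with at most 10 codons after it. Selenok (94 codons, 0.74) and Selenow (88 codons, -2.69) are close in length and at opposite ends of the ratio.

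Relatives that have no selenocysteine gave a further reference. The mean log2 ratio over 16 pellets was 0.67 ± 0.48 (SD) for Gpx8, a peroxidase of the endoplasmic reticulum with 209 codons, beside -1.08 for Gpx1 with 201 codons. Glutathione reductase (Gsr), a relative of the thioredoxin reductases, had 0.20 ± 0.12. The methionine sulfoxide reductase Msrb2 had -0.62 ± 0.54, beside -0.53 for the selenoprotein Msrb1. Another, Msrb3, had 0.16 ± 0.59. Sephs1 had -0.10 ± 0.22, beside 0.04 for the selenoprotein Sephs2, which makes the selenium donor. The relatives thus differed in direction. Over the 16 pellets Gsr was below Txnrd1 and Txnrd2 (0.54 and 0.40) by more than its own SD. Txnrd2 had a wider SD (0.37), and its mean in ASP shSCR (0.01) was below the lowest Gsr pellet (0.05). Gpx8 and Msrb3 were over 1 SD above Gpx1 and Msrb1, and Msrb2 and Sephs1 were within 1 SD of Msrb1 and Sephs2.

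To ask whether aspartate or either hairpin shifted these mRNAs between fractions, the ratios were compared between conditions. The 3 comparisons share the ASP shSCR pellets. No member passed the threshold in any of them. Against NoASP shSCR and against ASP shGRIN2D no gene of the 17757 passed edgeR's test (0%; 343 and 571 genes, and 0 and 1 members, at an unadjusted p under 0.05; DESeq2 also called 0). Against ASP shDHPS 37 genes passed (0.208%), each of them higher in ASP shSCR, and 0 of the 10 members, of which 2 had an unadjusted p under 0.05, as did 2416 genes. DESeq2 called 626 genes in this comparison, 66.6% of them higher in ASP shSCR and the others lower, and none of the 10. Without ASP shSCR replicate 1, edgeR called 0, 0 and 28 genes in the 3 comparisons and 0 of the members.

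**Figure D3:**
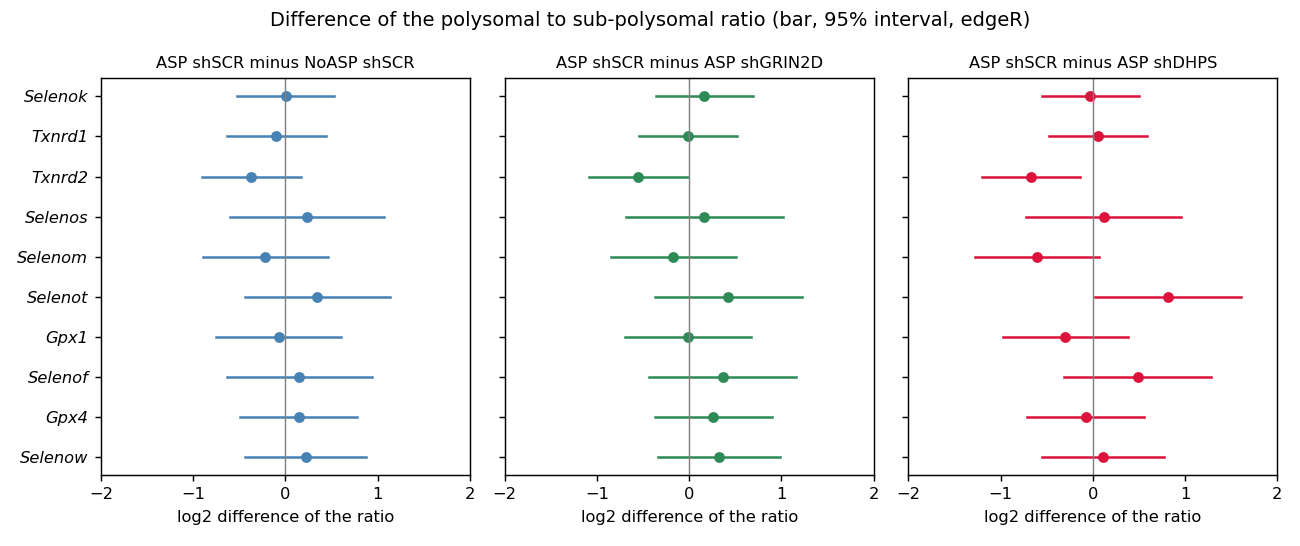
Each panel is 1 comparison of ASP shSCR with another condition; points are the log2 difference of the polysomal to sub-polysomal ratio for each of the 10 mRNAs and bars are 95% intervals from the edgeR fit. Txnrd2 is left of 0 in all 3 panels (-0.37, -0.55 and -0.67), and no difference passed the adjusted threshold.

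Txnrd2 was the member whose pellets separated. Its ratio was lower in ASP shSCR than in ASP shDHPS by 0.67 on the log2 scale (difference -0.67, SE 0.259, 95% interval -1.20 to -0.13, edgeR adjusted p = 0.247). The pellets of both conditions did not overlap, also without ASP shSCR replicate 1 (-0.58). Of all genes, 2.15% were likewise lower in ASP shSCR with no overlap. The adjusted p ranged from 0.076 (DESeq2) to 0.602 (without ASP shDHPS replicate 1) over the alternatives. The difference from ASP shGRIN2D was -0.55 (95% interval -1.09 to -0.02, edgeR adjusted p = 1) and that from NoASP shSCR -0.37 (-0.90 to 0.16), and pellets overlapped in both. Without ASP shSCR replicate 1 these were -0.46 and -0.26.

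Selenot moved the other way against ASP shDHPS. Its log2 ratios were -0.93, 0.45, -1.05 and -0.69 in ASP shSCR and -2.43, -1.005, -1.22 and -0.90 in ASP shDHPS. The highest ASP shSCR pellet (replicate 2) and the lowest ASP shDHPS pellet (replicate 1) stood apart, and the rest overlapped. The difference was 0.82 (SE 0.385, 95% interval 0.02 to 1.61, edgeR adjusted p = 0.349), and it shrank to 0.47 when ASP shSCR replicate 2 was left out and to 0.48 when ASP shDHPS replicate 1 was (0.91 without ASP shSCR replicate 1). Selenom had -0.61 in this comparison (95% interval -1.28 to 0.07, edgeR adjusted p = 0.421). It was -0.32 without ASP shSCR replicate 1 and -0.95 without ASP shSCR replicate 2.

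For the 6 members called in the same direction in all conditions, the intervals give the shifts that the pellets allow. Selenok differed between ASP shSCR and the other conditions by 0.00, 0.17 and -0.03, with 95% intervals that stayed between -0.55 and 0.69. Txnrd1 differed by -0.10, -0.01 and 0.06 (-0.64 to 0.59), Gpx4 by 0.14, 0.26 and -0.08 (-0.71 to 0.90) and Selenow by 0.22, 0.32 and 0.11 (-0.55 to 0.98). Gpx1 differed by -0.07, -0.01 and -0.30 (-0.98 to 0.68) and Selenof by 0.15, 0.36 and 0.49 (-0.64 to 1.28), the widest intervals of the 6. Single pellets moved these small values. Without ASP shSCR replicate 1 the 3 differences were 0.02, 0.16 and -0.03 for Selenok, 0.05, 0.12 and 0.19 for Txnrd1, 0.05, 0.15 and -0.19 for Gpx4, and -0.03, 0.05 and -0.16 for Selenow. For Gpx1 they were 0.13, 0.18 and -0.11, and for Selenof 0.08, 0.27 and 0.39. Against ASP shGRIN2D, leaving out any 1 pellet gave 0.04 to 0.49 for Gpx4 and 0.05 to 0.59 for Selenow. Shifts within the intervals were compatible with the values of the 4 pellets per condition.

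Next, the level of each mRNA was compared within a fraction. In these bulk libraries fewer cells of a kind and less mRNA per cell cannot be told apart. Per transcript length (counts divided by the annotated transcript length, scaled to the same total in each library), the sub-polysomal level in ASP shSCR was highest for Gpx4 (1774 ± 191, SD, n = 4), followed by Gpx1 (1401 ± 198), Selenow (1180 ± 130) and Selenof (860 ± 180), and each of these overlapped with the next. Selenom (124 ± 10.5), Selenot (108 ± 32.6) and Txnrd1 (96.0 ± 33.8) overlapped. Selenok (43.0 ± 5.54) and Selenos (42.5 ± 13.3) overlapped too, also with the lowest Txnrd1 library, and Txnrd2 was lowest at 6.95 ± 0.291. On the same per-length scale the polysomal level was highest for Gpx1 (940 ± 476) and Gpx4 (882 ± 510), which overlapped with each other and with Selenof (602 ± 316), while Selenow (292 ± 91.0) was below these 3. Txnrd1 (192 ± 77.8), which overlapped with Selenow, had a higher mean there than Selenom (120 ± 86.9), Selenot (105 ± 41.4) and Selenok (102 ± 17.5). Its libraries overlapped with those of Selenom and Selenot. They lay just above those of Selenok (lowest Txnrd1 library 124, highest Selenok library 122). Without ASP shSCR replicate 1 the polysomal means on this scale were 1097 (Gpx1), 968 (Gpx4), 667 (Selenof), 270.2 (Selenow), 214 (Txnrd1), 147 (Selenom), 123 (Selenot) and 109 (Selenok), with n = 3. The isoforms behind the counts are not known here and the lengths are those of the longest coding transcript, so the order between genes depends on that choice.

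**Figure D4:**
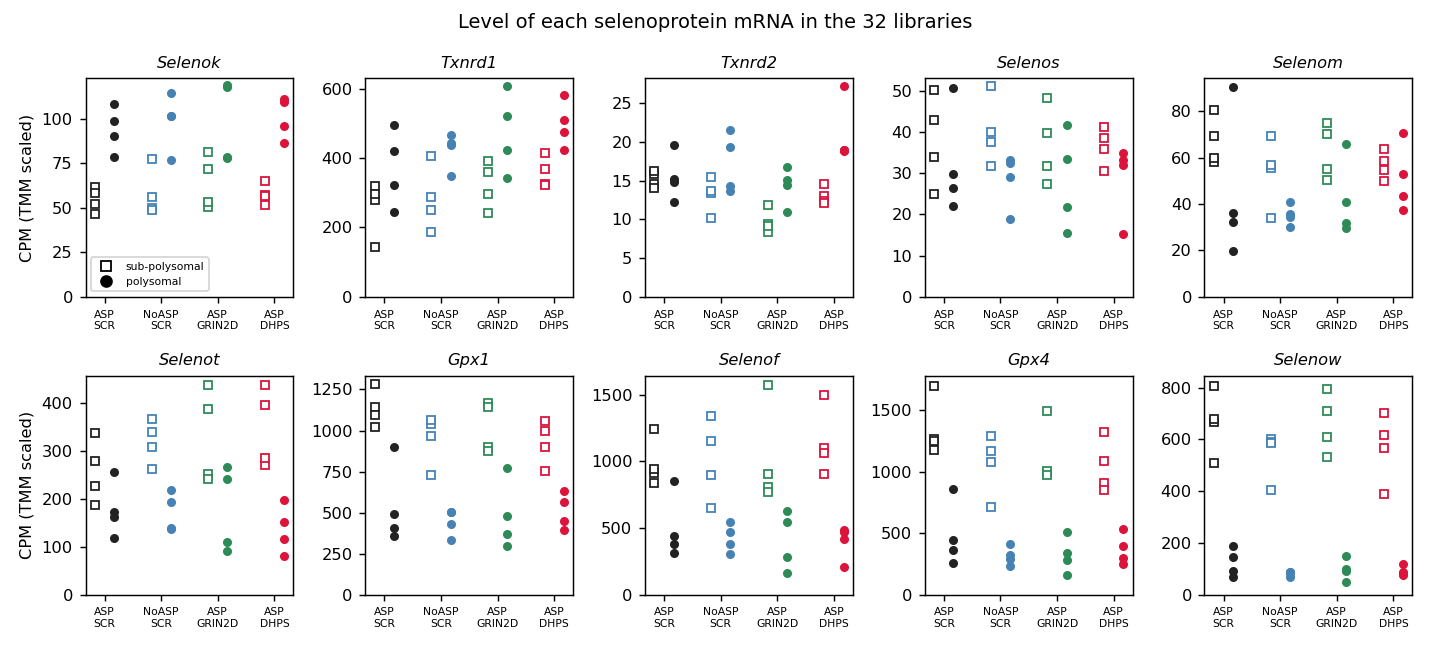
Each panel shows the CPM of 1 mRNA (TMM scaled, axis from 0) in the 32 libraries by condition, with open squares for sub-polysomal and filled circles for polysomal libraries. Selenow, Gpx4, Gpx1 and Selenof lie higher in the sub-polysomal libraries, Selenok and Txnrd1 mostly in the polysomal libraries, and no panel holds a difference between conditions that passed edgeR's adjusted threshold.

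None of the 10 members passed edgeR's threshold in any of the 6 comparisons of level. Against NoASP shSCR no gene did in either fraction (0%). Against ASP shGRIN2D 0.315% of genes passed in the sub-polysomal and 0.0169% in the polysomal fraction, and against ASP shDHPS 1.41% and 0.169%. The last 2 were 251 and 30 genes, and 136 and 131 genes without ASP shSCR replicate 1, with 0 members in either case. Of the calls against ASP shDHPS in the sub-polysomal fraction 68.9% were higher in ASP shSCR, or 50.3% when scaled by library totals.

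The closest was again Txnrd2. Its sub-polysomal level was 15.8, 16.3, 14.5 and 14.1 CPM in ASP shSCR and 9.43, 8.36, 9.14 and 11.8 CPM in ASP shGRIN2D. Every ASP shSCR pellet was above every ASP shGRIN2D pellet, as in 2.83% of all genes. The log2 difference was 0.66 (SE 0.174, edgeR adjusted p = 0.104), and DESeq2 called it (adjusted p = 0.0179). In the same comparison the keratin Krt7 was higher in ASP shSCR (log2 difference 1.14, edgeR adjusted p = 0.000904), the only carcinoma marker of 8 that passed, and the part of such differences in the Txnrd2 result was not tested. In the polysomal fraction the Txnrd2 difference was 0.18 (edgeR adjusted p = 0.906), or 0.22 without ASP shSCR replicate 1.

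Txnrd1 had sub-polysomal levels of 319, 143, 278 and 298 CPM in ASP shSCR and 325, 323, 368 and 416 CPM in ASP shDHPS. Every ASP shDHPS pellet was above every ASP shSCR pellet, as in 4.63% of all genes, though the closest were only a few CPM apart and ASP shSCR replicate 2 was far below. The log2 difference was -0.46 (SE 0.217, edgeR adjusted p = 0.29). It was -0.26 without ASP shSCR replicate 2 (edgeR adjusted p = 0.682), and it passed with the replicate number as a block (-0.52, edgeR adjusted p = 0.0399). Krt7, Krt8, Krt18 and Krt19 were higher in the sub-polysomal libraries of ASP shSCR in this comparison (log2 differences 0.74 to 1.04), 4 of 8 carcinoma markers, and their part in the Txnrd1 result was not tested. Gpx4 had 0.38 (95% interval -0.04 to 0.79) and Gpx1 0.29 (-0.06 to 0.64) in the same comparison, without passing.

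Several members deviated together from pellet to pellet. With each condition's mean removed, the log2 ratios of Selenos and Selenot had a Pearson r of 0.93 over the 16 pellets, Gpx1 and Selenos 0.92, and Selenof and Selenot 0.90. Txnrd1 ran against Selenow (-0.73) and Selenof (-0.42). Leaving out ASP shSCR replicate 1, these 5 values were 0.95, 0.91, 0.93, -0.66 and -0.45. The points share libraries, so these values are descriptions with no test. The mean of the 10 members was highest in ASP shSCR replicate 2 (0.00) and lowest in ASP shGRIN2D replicate 1 (-1.41). Of the 9419 other genes whose counts reached 50 in all libraries, 145 had an r of at least 0.9 with this mean across the pellets. The 5 most alike were Ciao2b (0.981), Dtymk (0.980), Med28 (0.978), Mrpl53 (0.972) and Tmem218 (0.968).

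**Figure D5:**
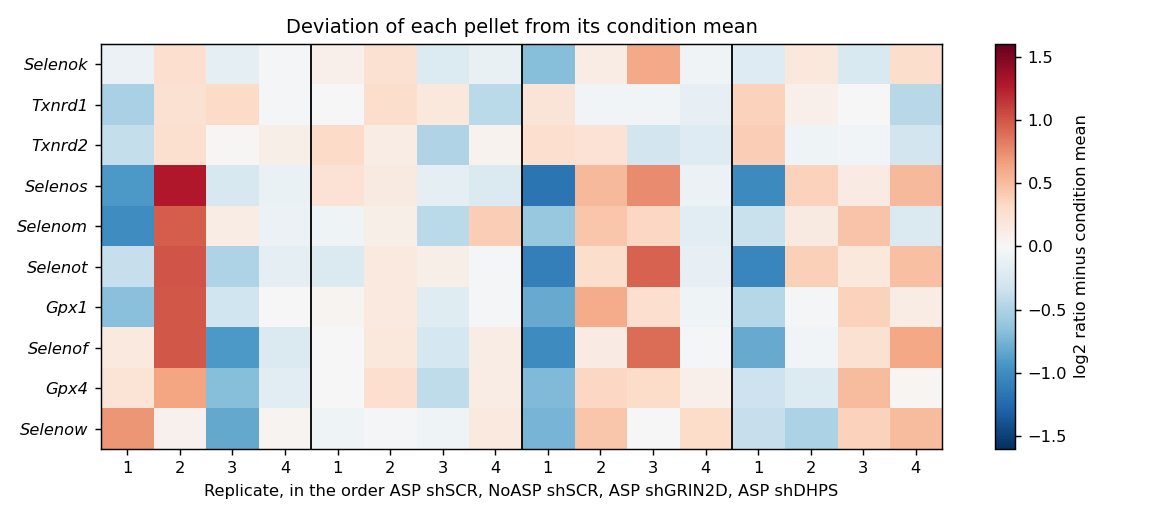
Rows are the 10 mRNAs and columns the 16 pellets, and colour is the log2 polysomal to sub-polysomal ratio minus the mean of its condition. ASP shSCR replicate 2 is high and ASP shGRIN2D replicate 1 low in most rows, whereas Txnrd1 and Txnrd2 are above their condition mean in both.

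Finally, the genes that make, read and work with selenoproteins were counted. All 14 listed genes of selenocysteine synthesis and UGA recoding were in the table, and 0 passed edgeR's threshold in any comparison between conditions, for ratio or level. Within conditions 7 to 8 of the 14 had a higher and 2 a lower ratio than the median mRNA, beside 20.8% to 23.7% and 18.9% to 21.3% of all genes, and in ASP shSCR their median log2 ratio was 0.60. The ends of this list in ASP shSCR, named after their values were seen, were Eif4a3 (1.63), an RNA helicase that binds some SECIS elements, and Rpl30 (-1.32), a ribosomal protein that also binds SECIS elements. Of 20 thioredoxin and glutathione partners 10 to 11 had a higher and 2 a lower ratio, beside the same shares of all genes (20.8% to 23.7% and 18.9% to 21.3%), with the peroxiredoxin Prdx1 highest (1.98 in ASP shSCR) and mitochondrial thioredoxin Txn2 lowest (-1.48), and 0 passed between conditions. Of 12 endoplasmic reticulum partners of SELENOF, SELENOK and SELENOS 4 to 5 were higher and 2 to 4 lower in ratio, beside 20.8% to 23.7% and 18.9% to 21.3% of all genes, from Vcp (1.58 in ASP shSCR) to Derl3 (-2.23), and 0 passed between conditions. The 3 measured selenium uptake genes gave 0 calls between conditions as well.

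Among the other 11 selenoprotein mRNAs, Gpx2, a peroxidase of epithelia, was the only call between conditions. Its sub-polysomal level was 4.50 ± 0.918 CPM in ASP shSCR and 1.59 ± 0.504 CPM in ASP shDHPS (SD, n = 4; log2 difference 1.50, edgeR adjusted p = 0.0281), a comparison in which 1.41% of all genes were called. Of the 5 measured relatives without selenocysteine, the methionine sulfoxide reductase Msrb3 was the only call. In the same comparison it was at 5.15 ± 2.09 CPM in ASP shSCR and 13.0 ± 3.49 CPM in ASP shDHPS (log2 difference -1.33, edgeR adjusted p = 0.00773, 1.41% of all genes). In that comparison 4 of 8 carcinoma markers were also called higher in ASP shSCR, and their part in the Gpx2 and Msrb3 results was not tested.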

How the data were processed

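RNA of polysomal and sub-polysomal gradient fractions was sequenced as stranded mRNA libraries. Per the paper's methods and the submitters' processing notes, the authors used Trim Galore 0.6.6, FastQC 0.11.9, STAR 2.6.1 (GRCm39) and Salmon 1.4.0, rounded the estimates, left out genes without a count in at least 3 of 4 replicates of any condition and fraction, and deposited the rest as whole-number counts per gene. Their tables of log2 differences, p-values and scores were not used. Here the counts were tested with edgeR 4.0.16 in R 4.3.3 (TMM scaling, quasi-likelihood F-test, Benjamini-Hochberg over 17757 genes, threshold 0.05). The ratio model held 1 term per pellet (16) and 1 ratio between fractions per condition, so fractions were paired by pellet as in the methods. Levels were fitted in each fraction over its 16 libraries. Pellet ratios are log2 CPM differences with a prior count of 2. P-values measure the spread between pellets of 1 experiment. DESeq2 1.42.0, with its default filtering, was an alternative beside 2 other scalings, a minimum of 10 counts, fits with fewer samples, blocks and each pellet left out. Both models were tested on simulated data, with results that are not given here. Coding lengths and UGA codons came from GENCODE M21 (longest coding transcript). Named genes include the 10 members, list genes called between conditions, the genes targeted by the hairpins and the 5 genes most like the members' mean. Also named are other selenoproteins, relatives without selenocysteine, cell markers and the highest and lowest genes of some lists. The members and lists were chosen with earlier results of these data known.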

Additional observations from a re-analysis of the deposited data

Results flagged for a closer look

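In 5 of 120 groups of 4 values for the 10 mRNAs (ratios, and levels in each fraction, in each condition) 1 sample stood apart from the other 3 by Dixon's gap test, where chance gives about 6. Gpx4 was at 1495 CPM in the sub-polysomal library of ASP shGRIN2D replicate 2, against 978 to 1009 CPM in the others. Txnrd2 was at 27.2 CPM in the polysomal library of ASP shDHPS replicate 1, against 18.8 to 19.0 CPM. Selenos was at 15.3 CPM in that same library, against 31.9 to 35.0 CPM. Selenow was low in both libraries of NoASP shSCR replicate 4, at 403.5 CPM in the sub-polysomal library (others 588 to 603 CPM) and 66.9 CPM in the polysomal library (others 83.5 to 85.9 CPM).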

How the results depend on the processing

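The counts of members past the threshold in the 4 ratios and the 9 differences were recomputed with 2 other scalings, a minimum of 10 counts, DESeq2, other blocks, fewer samples and each pellet left out. With all pellets, members called were 5 to 8 in ASP shSCR, 7 to 8 in NoASP shSCR, 7 to 9 in ASP shGRIN2D and 7 to 8 in ASP shDHPS, and 2 of the 9 differences went from 0 to 1. In the sub-polysomal level, ASP shSCR minus ASP shGRIN2D gave 1 member with DESeq2 (Txnrd2), and ASP shSCR minus ASP shDHPS gave 1 with the replicate block (Txnrd1, -0.52); the cause was not tested. With a pellet left out, members called were 6 to 8 in ASP shSCR, 7 to 8 in NoASP shSCR, 5 (without ASP shGRIN2D replicate 1) to 9 in ASP shGRIN2D and 7 to 8 in ASP shDHPS, the 9 differences gave 0, and 39 to 41 of the 45 pairs of members differed. Replicate numbers across conditions fell short of the rule for pairing, an r of deviations over 0.1 in every pair of pellets with the same number (ratio, median 0.166 over 24 pairs, lowest -0.270, against -0.050 over 72 with different numbers; sub-polysomal level, 0.249, lowest -0.312, against -0.076). In the polysomal level the median was 0.358 (lowest -0.229), against -0.107. Pairs over 0.1 were 18 of 24 (sub-polysomal) and 16 of 24 (polysomal) with the same number, against 13 and 21 of 72 with different numbers. As a hint from the data, 14 of 16 sub-polysomal and 11 of 16 polysomal libraries were closest to their own number. A replicate block across conditions raised the genes called in the ratio against ASP shDHPS from 37 to 231 and in the sub-polysomal level from 251 to 758. The fit without the pellet term lost 3 Txnrd1 and 3 Selenom calls. The block gave 405 polysomal calls against ASP shDHPS (30 before), and 195 and 27 calls in sub-polysomal and polysomal level against ASP shGRIN2D (56 and 3 before). DESeq2 called 626, 651 and 554 genes against ASP shDHPS for ratio, sub-polysomal and polysomal level, and 224 and 73 (50.7% higher) against ASP shGRIN2D for level. In the ratio against ASP shDHPS the minimum of 10 counts gave 266 calls, and DESeq2 size factors, no pellet term or only the 2 conditions gave 0 each. Only the 2 conditions gave 1 polysomal call there. The share of calls higher in ASP shSCR went from 66.1% to 54.8% (sub-polysomal, ASP shGRIN2D) and from 93.3% of 30 to 75% of 4 (polysomal, ASP shDHPS) with library totals, and from 0% of 3 to 14.3% of 7 (polysomal, ASP shGRIN2D) with DESeq2 size factors.

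Signs changed in 52 of 1680 alternative values of single members, 0 of them for a called value and 0 past the threshold. With all pellets these were the Txnrd2 ratio in ASP shSCR (-0.073 with DESeq2 size factors, -0.072 with DESeq2, -0.025 with the count minimum) and ratio differences near 0. Without the pellet term, Gpx1 was 0.023 and Selenom 0.035 against NoASP shSCR, Gpx1 0.012 against ASP shGRIN2D and Gpx4 0.011 against ASP shDHPS. With the count minimum, Gpx1 was 0.040 and Txnrd1 0.034 against ASP shGRIN2D and Selenok 0.012 against ASP shDHPS. With library totals, Gpx4 was 0.020 and Selenok 0.075 against ASP shDHPS, and with only these 2 conditions Selenok was 0.018. With a pellet left out, the Txnrd2 ratio in ASP shSCR ran from -0.12 to 0.071. Differences against NoASP shSCR ran from -0.39 to 0.13 (Gpx1), -0.065 to 0.37 (Gpx4), -0.25 to 0.051 (Txnrd1), -0.17 to 0.46 (Selenof), -0.086 to 0.085 (Selenok), -0.54 to 0.092 (Selenom), -0.18 to 0.52 (Selenos) and -0.033 to 0.49 (Selenow). Against ASP shGRIN2D they ran from -0.35 to 0.19 (Gpx1), -0.11 to 0.12 (Txnrd1), -0.017 to 0.37 (Selenok), -0.51 to 0.12 (Selenom) and -0.27 to 0.44 (Selenos). Against ASP shDHPS they ran from -0.31 to 0.15 (Gpx4), -0.092 to 0.19 (Txnrd1), -0.14 to 0.065 (Selenok), -0.32 to 0.39 (Selenos) and -0.16 to 0.38 (Selenow). Of the 55 level differences of members that are not printed, 0 were called in 1210 alternative values, and 66 values changed sign.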
